A study of Mus musculus with 6 samples.

Results

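Mammalian cells make most of their ATP by oxidative phosphorylation, in which complexes I to IV of the inner mitochondrial membrane pass electrons from nutrients to oxygen, complexes I, III and IV pump protons, and complex V, the ATP synthase, uses the resulting gradient. Most of the subunits are encoded in the nucleus and have to be made in matched amounts, although a few subunits have alternative forms that are used in heart, skeletal muscle, testis or lung. Skeletal stem and progenitor cells (SSPCs), the stromal cells of bone marrow that give rise to osteoblasts and adipocytes, draw on this pathway to differing extents as they differentiate.

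The genes described here are the nuclear protein-coding genes of mouse whose symbols begin with Ndufa, Ndufb, Ndufc, Ndufs, Ndufv, Uqcr, Atp5 or Cox4 to Cox8, or that are Sdha, Sdhb, Sdhc or Sdhd, with the Ndufaf assembly factors left out. There were 86 such gene records with 85 symbols among 21853 nuclear protein-coding genes. Sorted by name, 38 belonged to complex I (NADH dehydrogenase), 4 to complex II (succinate dehydrogenase), 8 to complex III (cytochrome c reductase), 18 to complex IV (cytochrome c oxidase) and 18 to complex V. Ndufa4 was sorted with complex I by its name, although its product is a subunit of complex IV. The other members were also sorted by name alone, so not each product is shown to be a subunit of the complex named. Atp5o had 2 records, of which 1 never had a peak.

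Open chromatin was mapped by ATAC-seq, where a transposase cuts accessible DNA, in 3 young and 3 middle-aged libraries of cultured SSPCs. All libraries were from untreated C57BL/6 mice; marrow from tibiae and femora was plated and the adherent cells were used at passage one. The labels give age only as young or middle-aged, while the study's methods place its middle-aged mice at about a year of age and its young adults at a few months. The labels do not tie a library to single mice or give sex, so that tests measure the spread between these libraries, which may in part be technical. The labels also name the source material as RNA, although the files hold peaks.

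The peak lists held 35953, 43941 and 27628 peaks in young libraries 1 to 3 and 46364, 46745 and 48344 in the middle-aged ones. The background of the peak caller, solved from each list's own columns, was 1.65 reads per base in young library 3 against 2.40 to 3.75 in the other libraries, and this library also had the fewest peaks. Only 3 of 9 SSPC markers (Kitl, Runx2, Ebf3) had a peak at their start site in every library, and Lepr and Prrx1 had none in any. Of 8 macrophage and blood markers, 5 had a peak in every library, among them Ptprc, which encodes CD45, and Adgre1, which encodes F4/80. A further macrophage marker had a peak only in young libraries 2 and 3, and 2 of the 8, including Cd3e, had none. Of 5 endothelial markers, Cdh5 alone had a peak in every library, and none of 4 muscle markers had one in any library. Per library, 3 to 7 of the SSPC markers, 5 to 6 of the macrophage and blood markers and 2 to 4 of the endothelial markers were called. In a culture of mixed cells, a change in the share of a cell type and a change within cells cannot be told apart, and the part of these other cells in the results below was not tested.

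A gene was counted as called where a peak overlapped the window of 1000 bp on either side of any of its transcription start sites (TSSs). The strength of a call was expressed as the percentile rank, within its own list, of the peak's −log10 q value, so that 100 is the most significant peak of that list. To show what lies under these peaks, the promoter sequences of 8 members are printed from RefSeq, build GRCm38.p6, from 250 bases before to 30 bases after the annotated start. They are the promoters of the highest-ranking member (Ndufb5) and the lowest-ranking member (Ndufs3) of those with a peak in every library. Also printed are 2 pairs of subunit isoforms. Cox7a2 and Cox7a1 were both called in every library, whereas Cox7b was called in 2 libraries and Cox7b2 in 0. The others are the highest-ranking members whose printed stretch held the NRF1 motif (Ndufa6) or the YY1 motif (Ndufa3). The last 2 were chosen after the data were seen. Capitals mark matches, on either strand, to GCNTGCGC (NRF1), CCGGAAG (the ETS family, which includes the GABP factor), AAGATGGC (YY1), GGGCGG (SP1), CCAAT and TATAAA. Adjoining or overlapping matches run together, as with SP1 and ETS in Ndufs3.
Ndufb5: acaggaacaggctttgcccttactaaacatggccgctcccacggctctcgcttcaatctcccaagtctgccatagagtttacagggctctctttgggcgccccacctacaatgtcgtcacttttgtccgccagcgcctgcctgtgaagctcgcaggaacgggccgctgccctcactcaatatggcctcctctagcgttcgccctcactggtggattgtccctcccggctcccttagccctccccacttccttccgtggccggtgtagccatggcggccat
Ndufs3: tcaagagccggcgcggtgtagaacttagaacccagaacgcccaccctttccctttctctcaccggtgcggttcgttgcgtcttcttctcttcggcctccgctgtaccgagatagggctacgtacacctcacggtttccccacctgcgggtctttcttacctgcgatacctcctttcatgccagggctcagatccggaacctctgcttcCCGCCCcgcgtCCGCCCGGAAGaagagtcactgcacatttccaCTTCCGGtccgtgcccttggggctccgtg
Cox7a2: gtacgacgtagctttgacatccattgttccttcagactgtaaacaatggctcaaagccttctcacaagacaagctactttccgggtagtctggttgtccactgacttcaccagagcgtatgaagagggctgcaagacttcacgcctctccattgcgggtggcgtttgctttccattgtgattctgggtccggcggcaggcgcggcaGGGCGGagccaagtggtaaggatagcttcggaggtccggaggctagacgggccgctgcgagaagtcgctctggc
Cox7a1: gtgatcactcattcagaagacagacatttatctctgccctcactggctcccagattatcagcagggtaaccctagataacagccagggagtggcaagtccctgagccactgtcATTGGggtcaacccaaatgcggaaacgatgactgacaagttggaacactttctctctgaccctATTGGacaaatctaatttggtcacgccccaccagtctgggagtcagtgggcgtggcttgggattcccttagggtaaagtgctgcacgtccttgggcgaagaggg
Cox7b: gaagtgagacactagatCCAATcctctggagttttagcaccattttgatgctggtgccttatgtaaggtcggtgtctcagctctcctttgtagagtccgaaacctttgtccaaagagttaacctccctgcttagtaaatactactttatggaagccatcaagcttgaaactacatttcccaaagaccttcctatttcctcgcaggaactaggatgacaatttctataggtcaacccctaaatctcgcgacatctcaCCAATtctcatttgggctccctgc
Cox7b2: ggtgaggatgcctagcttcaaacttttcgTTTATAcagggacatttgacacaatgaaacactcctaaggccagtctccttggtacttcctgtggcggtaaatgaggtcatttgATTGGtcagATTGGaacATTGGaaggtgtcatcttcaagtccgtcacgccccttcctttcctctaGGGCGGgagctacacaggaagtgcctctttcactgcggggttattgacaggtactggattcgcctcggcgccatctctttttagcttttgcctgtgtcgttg
Ndufa6: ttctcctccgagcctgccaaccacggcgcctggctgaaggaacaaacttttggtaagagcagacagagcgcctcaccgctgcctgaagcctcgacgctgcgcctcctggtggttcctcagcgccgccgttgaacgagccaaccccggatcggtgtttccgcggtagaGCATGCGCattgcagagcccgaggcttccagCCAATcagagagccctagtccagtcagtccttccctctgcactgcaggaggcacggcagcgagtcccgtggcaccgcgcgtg
Ndufa3: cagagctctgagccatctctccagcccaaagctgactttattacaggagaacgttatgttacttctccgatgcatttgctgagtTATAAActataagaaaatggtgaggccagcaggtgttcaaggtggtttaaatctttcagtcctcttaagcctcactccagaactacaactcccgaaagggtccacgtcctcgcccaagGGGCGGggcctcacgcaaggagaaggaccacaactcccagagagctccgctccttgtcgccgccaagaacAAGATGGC
The stretches lay at chr3:32736813-32737092, plus strand for Ndufb5, chr2:90904692-90904971, minus strand for Ndufs3, chr9:79759824-79760103, minus strand for Cox7a2, chr7:30183921-30184200, plus strand for Cox7a1, chrX:106015450-106015729, plus strand for Cox7b, chr5:71548176-71548455, minus strand for Cox7b2, chr15:82354262-82354541, minus strand for Ndufa6 and chr7:3617123-3617402, plus strand for Ndufa3. Called peaks overlapped the stretches of Ndufb5, Ndufs3, Cox7a2, Cox7a1, Ndufa6 and Ndufa3 in all 6 libraries, that of Cox7b in 2 and that of Cox7b2 in 0. Ndufb5 had no match to any of the 6 motifs. Ndufa6 had 1 NRF1 match starting at position -83 from the start site and a CCAAT box at -52, and Ndufa3 had a YY1 match starting at position 23 within the transcribed part. A match is a run of letters and does not show that a factor was bound.

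Of the 85 member symbols, 67 had at least 1 entry in the RefSeq promoter table, with 72 promoters of 300 bases. The NRF1 letters, the site of a regulator of nuclear-encoded mitochondrial genes, were in 33.3% of member promoters, against 21.0% of the promoters of protein-coding genes called in every library and 9.95% of all promoters in the table. The ETS letters were in 22.2% of member promoters, against 18.6% and 8.86% in the same groups. The YY1 letters were in 12.5%, against 4.74% and 2.75%. The SP1 letters went the other way: they were in 38.9% of member promoters and in 64.8% of the promoters of called genes, and in 35.7% of all. For CCAAT the shares were 41.7%, 39.0% and 37.4%, and for TATAAA 11.1%, 6.58% and 13.6%. These member shares include members that were not called in every library. In the 66 promoters of members called in every library, NRF1 was in 34.8%, ETS in 24.2% and YY1 in 13.6%. SP1 was in 37.9% of those 66, CCAAT in 39.4% and TATAAA in 9.09%. At least 1 of the NRF1, ETS and YY1 motifs was found in 54.2% of member promoters, 38.0% of those of called genes and 19.0% of all. Promoters of all protein-coding genes, called or not, had NRF1 in 13.6%, ETS in 11.9% and YY1 in 3.10%. In the same group SP1 was in 47.7%, CCAAT in 37.8% and TATAAA in 12.1%. At least 1 of NRF1, ETS and YY1 was in 24.9% of them.

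By complex, NRF1 matches were in all 3 promoters of complex II with an entry (Sdha, Sdhb, Sdhd), in 10 of 35 of complex I, 2 of 5 of complex III, 8 of 16 of complex V and 1 of 13 of complex IV (Cox6a1). Of the 9 YY1 matches, 7 were in complex I promoters, including Ndufs7, Ndufb8 and Ndufs4, and 2 in complex V, Atp5j and Atp5j2. These shares are descriptions of sequence and no test was made of them. Members without an entry in the table included Atp5a1, Atp5f1, Atp5mpl, Atp5s, Cox4i1, Cox4i2, Cox6a2, Cox6c, Cox8c, Ndufa2, Ndufa4l2, Ndufb9, Ndufs1, Sdhc, Uqcrb, Uqcrc2 and Uqcrq.

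Most respiratory chain genes had a called peak at their start site in every library. All 6 libraries had a TSS peak for 74 of 86 members (86.0%), against 48.4% of all nuclear protein-coding genes. For 7 members no library had one, and 5 were called in some libraries. All 4 genes of complex II and all 8 of complex III were called throughout, as were 35 of 38 of complex I and 17 of 18 of complex V, where the exception was the second Atp5o record. Complex IV stood lower, with 10 of 18. Its 5 members without any call, Cox4i2, Cox6a2, Cox7b2, Cox8b and Cox8c, are all tissue-restricted isoforms.

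**Figure D1:**
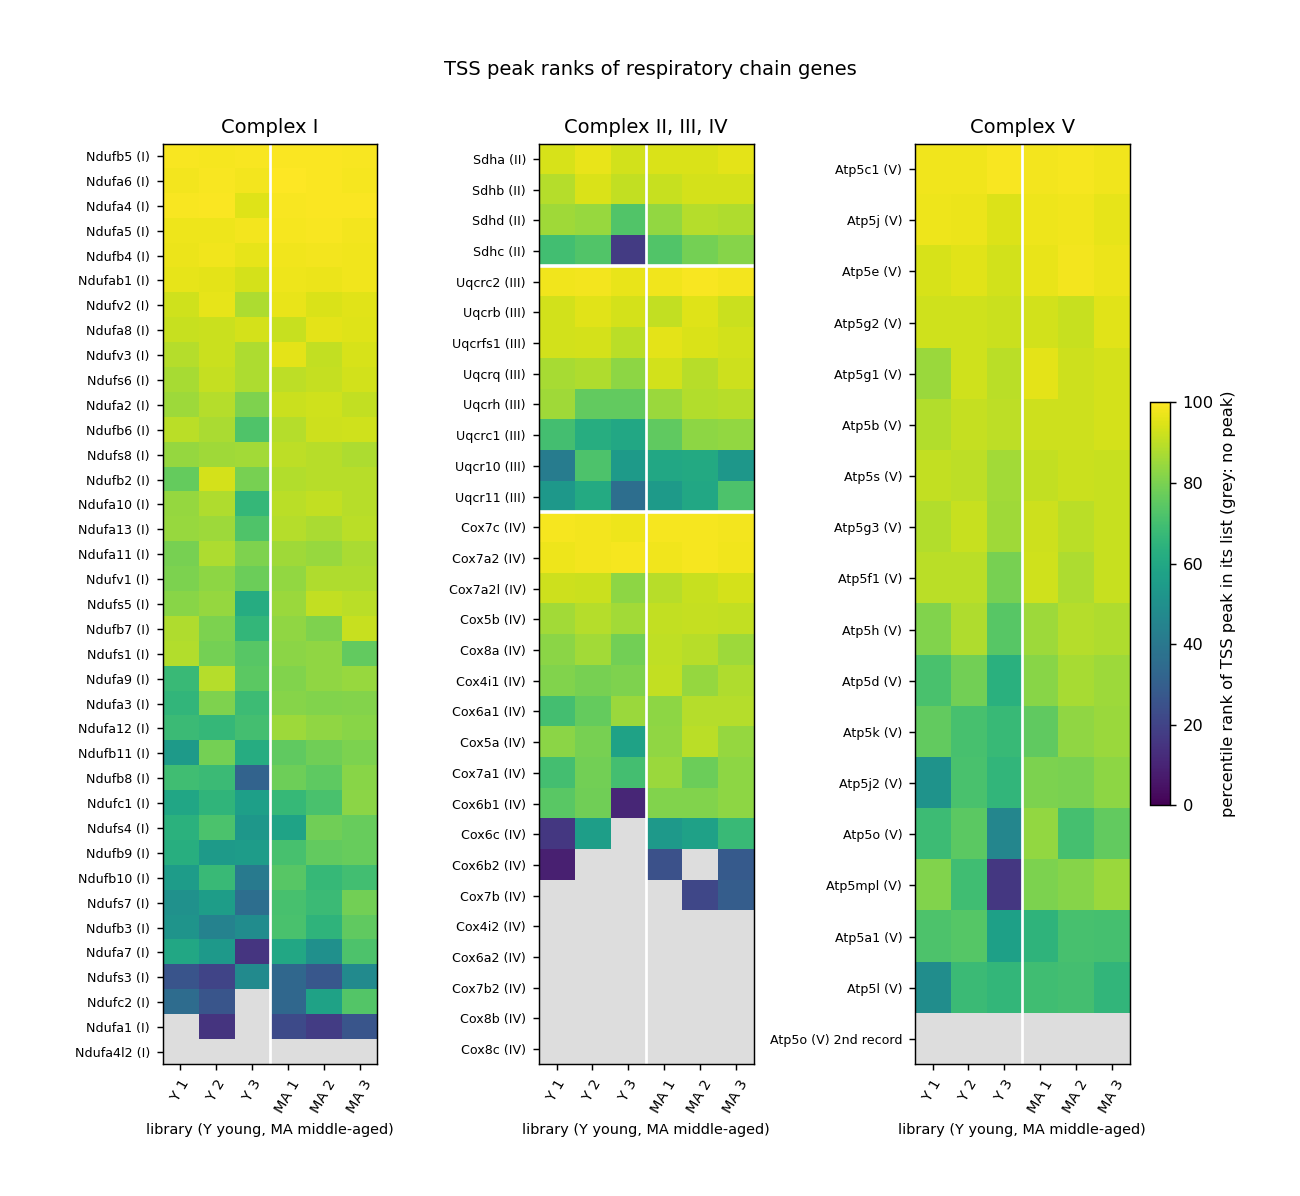
Percentile rank of the TSS peak (colour, 0 to 100) for 85 of the gene records (rows, complex in brackets) in the 3 young (Y) and 3 middle-aged (MA) libraries (columns), sorted by the number of libraries with a peak and then by mean rank, with grey for no peak. The grey block of complex IV holds its 5 uncalled isoforms, and dark cells for Cox6b1, Sdhc, Atp5mpl and Ndufa7 stand in young library 3.

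The number of members with a TSS peak was 77, 77 and 74 in young libraries 1 to 3 and 78, 78 and 79 in middle-aged libraries 1 to 3. The groups did not overlap, with means of 76.0 ± 1.73 and 78.3 ± 0.577 (SD, n = 3). As a share of members this was 88.4% and 91.1%, and the share of all genes with a TSS peak was 53.6% and 57.6%. Without young library 3 the difference of the means was 1.33 members instead of 2.33.

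The 5 members called in some libraries had weak peaks. Ndufa1, an X-linked accessory subunit of complex I, was called in young library 2 at rank 14.9 and in middle-aged libraries 1 to 3 at ranks 22.4, 17.7 and 26.2. Its summit was nearest to its own start site in only 1 library. In the others with a call it was nearest to that of Rnf113a1, which starts 82 bp away on the opposite strand. Cox7b, an X-linked subunit of complex IV, was called in middle-aged libraries 2 and 3 at ranks 21.3 and 29.3 and in no young library. These were the members called in at least 2 more middle-aged than young libraries, 2 of 86, while 2.78% of all genes were; 0 members and 24 genes went the other way. Ndufc2 (complex I) and Cox6c (complex IV) each lacked a peak only in young library 3. Their ranks elsewhere ranged from 26.2 in young library 2 to 73.2 in middle-aged library 3 for Ndufc2, and from 16.1 in young library 1 to 67.6 in middle-aged library 3 for Cox6c. Cox6b2, the testis isoform of subunit 6b, was called at rank 8.92 in young library 1 and at 24.8 and 28.3 in middle-aged libraries 1 and 3. Of the 3 X-linked members only Ndufb11 was called throughout; of all genes on X 30.4% were called throughout, against 49.6% of autosomal genes.

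Isoform pairs split mostly as general against tissue-restricted. Cox4i1, Cox6a1, Cox6b1, Cox7a2, Cox8a and Ndufa4 were called in every library, while their restricted counterparts Cox4i2 (lung), Cox6a2 (heart and muscle), Cox8b and Cox8c, and Ndufa4l2 were called in none. Cox7a1, the heart and skeletal muscle form of subunit 7a, was called in every library and had ranks of 70.3, 78.7 and 70.2 in young libraries 1 to 3 and 84.9, 77.5 and 83.1 in middle-aged libraries 1 to 3. Cox6b2, described above, was called in 3 libraries. The general form Cox7a2 ranked above Cox7a1 in each library, at 97.6, 98.3 and 98.5 in young libraries 1 to 3 and 97.7, 98.8 and 97.7 in middle-aged libraries 1 to 3. The muscle genes Ckm, Acta1, Myh6 and Myh7 had no peak in any library. In the pair Cox7b and Cox7b2 neither form was called throughout. All 3 genes for subunit c of the ATP synthase rotor were called in every library, with mean ranks over the 6 libraries of 91.6 for Atp5g1, 92.9 for Atp5g2 and 89.9 for Atp5g3. Their ranges over libraries overlapped.

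**Figure D2:**
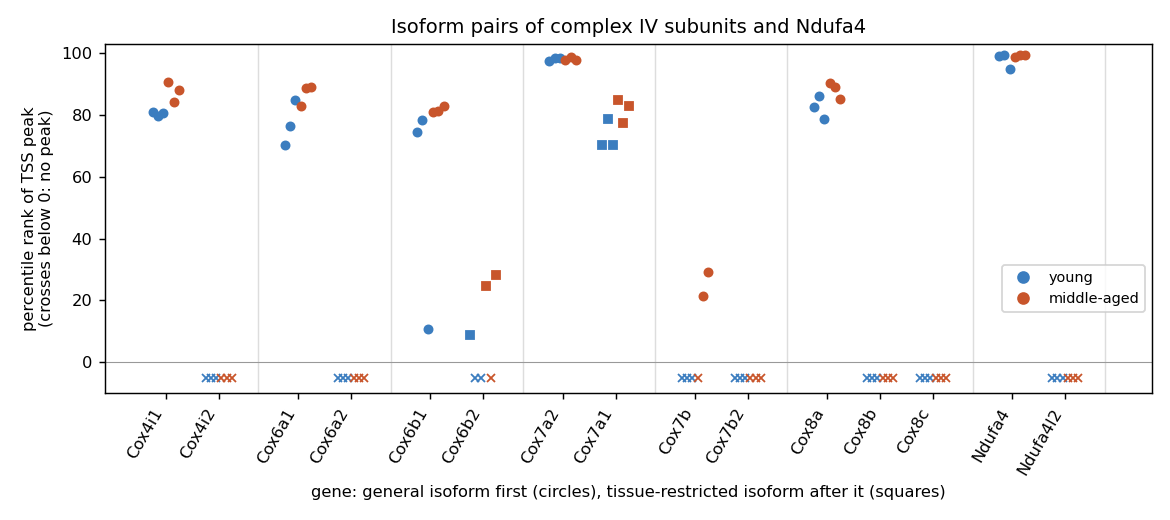
TSS peak rank (y axis, percentile within the list) of general isoforms (circles) and tissue-restricted isoforms (squares) in each young (blue) and middle-aged (orange) library, with crosses below 0 for libraries without a peak. Cox7a1 is the one restricted form with a peak in all 6 libraries, and Cox7b the one general form that lacks a peak in most.

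Where called, these start sites ranked like those of other called genes. The median over the 74 members of the mean rank was 84.2, and over the 10569 genes called in every library it was 84.9. A mean rank above 90 was reached by 25 members (33.8%, all genes 35.7%), and 1 member, Ndufs3, lay under 50 (1.35%, all genes 6.77%). By complex, the medians were 83.4 for complex I, 88.0 for II, 86.1 for III, 84.7 for IV and 88.5 for V.

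Complex I spanned the whole range. Ndufb5, an accessory subunit, ranked 99.1, 98.5 and 98.9 in young libraries 1 to 3 and 99.3, 99.5 and 99.0 in middle-aged libraries 1 to 3, and Ndufa6, another accessory subunit, stood next with a mean of 98.8. At the other end Ndufs3, a core subunit of the arm that carries the iron-sulfur clusters, ranked 26.1, 20.5 and 47.8 in young libraries 1 to 3 and 33.5, 27.1 and 47.9 in middle-aged libraries 1 to 3. The fold enrichment of the Ndufs3 peak over local background was 4.63, 4.7 and 7.09 in the young and 5.37, 5.08 and 6.33 in the middle-aged libraries, against 16.8, 16.7 and 16.8 and 19.6, 20.7 and 17.7 for Ndufb5. In no library was the Ndufs3 summit nearest to its own GENCODE start site, the nearest being that of Kbtbd4. The RefSeq start of the printed stretch lies downstream of that GENCODE start, on the same side as the summit. The peak is therefore not shown to belong to Kbtbd4. The second lowest was Ndufa7, an accessory subunit, with ranks of 59.9, 53.7 and 15.3 in young libraries 1 to 3 and 60.1, 50.1 and 72.0 in middle-aged libraries 1 to 3. Its young libraries were far apart, and young library 3 was the lowest of the 6.

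In complex II, the flavoprotein gene Sdha (mean rank 94.7) and the iron-sulfur gene Sdhb (92.1) ranked above the membrane anchor genes Sdhd (83.9) and Sdhc (65.6). Sdhc ranked 69.6, 72.9 and 17.5 in young libraries 1 to 3 and 72.8, 79.0 and 82.0 in middle-aged libraries 1 to 3, so that young library 3 stood far below the other 5. In complex III, the core subunit gene Uqcrc2 (97.9) and Uqcrb (93.4) were highest and the small accessory subunit genes Uqcr10 (57.0) and Uqcr11 (56.2) lowest. In complex IV, Cox7c (98.3) and Cox7a2 (98.1) were highest, and Cox7a1 (77.4) and Cox6b1 (68.1) lowest among those called throughout. In complex V, Atp5c1, the gamma subunit of the central stalk (98.3), and Atp5j, coupling factor 6 of the side stalk (96.9), were highest. Atp5a1, the alpha subunit of the catalytic head (68.2), and Atp5l, subunit g (64.8), were lowest. The ranked peak of Atp5l was not the same region in every library. It was chr9:44920563-44921109 in young library 2 and chr9:44921198-44921482 in middle-aged library 3.

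**Figure D3:**
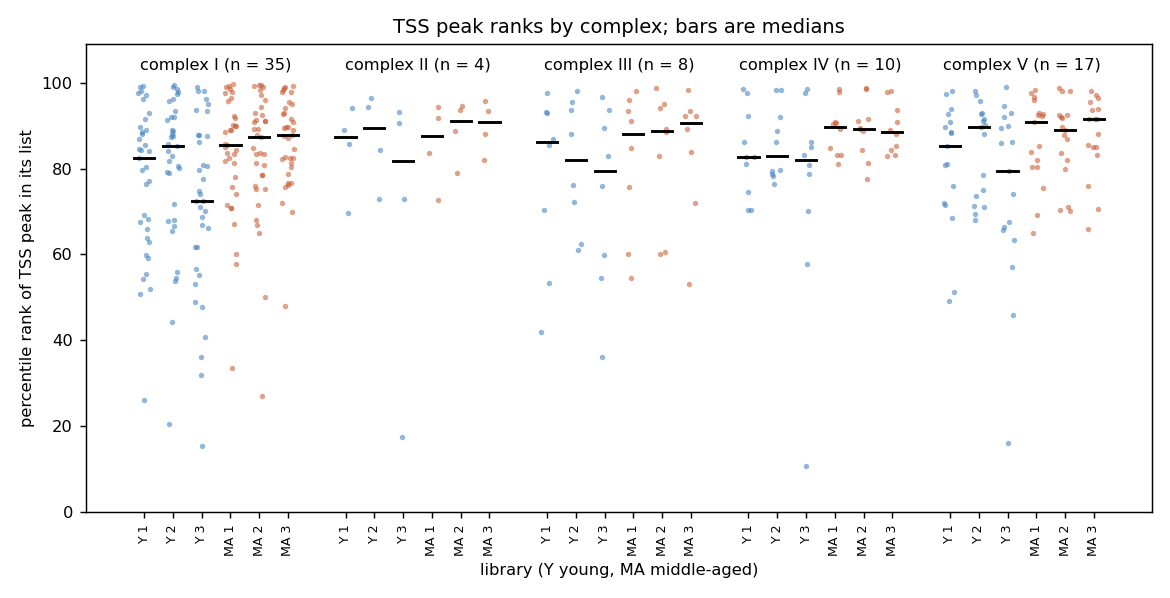
TSS peak rank (y axis, percentile within the list) of the members called in all 6 libraries, 1 point per gene, by complex and library (young blue, middle-aged orange), with the median as a bar. In each of the 5 complexes the lowest median is that of young library 3.

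The start sites of respiratory chain genes often lay beside another gene. A coding TSS on the opposite strand was within 1000 bp for 30 of the 74 members called throughout (40.5%), against 20.8% of all genes called throughout. The summit of the peak was within 100 bp of a start site of the gene for 62 members (83.8%), against 69.5% of all such genes, and the median offset was -24.5 bp (upstream) against -41.0 bp. For 56 of the 74 the summit was nearest to their own GENCODE start site in all 6 libraries, and for 10 in none: Ndufa11, Ndufa13, Ndufa4, Ndufb11, Ndufb3, Ndufs3, Sdhd, Uqcr10, Atp5f1 and Atp5j. Atp5j shared 1 broad peak with Gabpa, which encodes the DNA-binding subunit of GABP, a regulator of this pathway, and whose start site was nearer to the summit. For members with a shared peak, the openness of the start sites cannot be told apart.

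**Figure D4:**
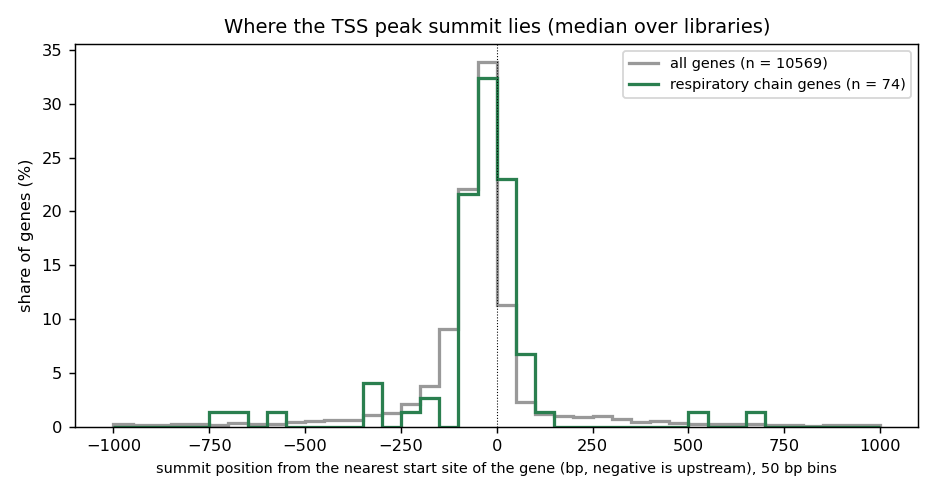
Position of the TSS peak summit from the nearest start site of the gene (x axis, bp in bins of 50, median over libraries) as a share of genes (y axis), for the 74 members (green) and all 10569 genes called in every library (grey). The members' summits lie within 100 bp for 83.8%, against 69.5%.

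The main comparison was of ranks between the ages. On the percentile scale of the whole list, 72 of 74 members had a higher mean rank in the middle-aged libraries, but so did most genes: the median difference was 5.70 points for the members and 4.97 for all 10569 genes. In 26 members (35.1%) every middle-aged library ranked above every young one, against 30.6% of all genes, and in 0 the reverse was seen, against 0.274% of all genes. The members' share was therefore close to that of all genes. By complex, the 26 were 15 of 35 in complex I, 0 of 4 in II, 2 of 8 in III, 4 of 10 in IV and 5 of 17 in V. In each gene the groups of 3 and 3 give an exact permutation test a smallest two-sided p of 0.1, so no single gene can pass 0.05 by it.

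The difference depended on how high a gene ranked. Members with a mean rank above 90 differed by a median of 1.39 points (all genes 1.31), those from 70 to 90 by 7.14 (all genes 6.78) and those under 70 by 15.7 (all genes 15.3). Young library 3, which had the shortest list, gave the lowest of the 6 ranks for 48 of 74 members (64.9%), against 68.6% of all genes. Without it, the members' median difference was 3.76 points (all genes 2.39), and of 76 members then ranked 29 were higher in every middle-aged library (32.7% of all genes) and 1 lower (2.23% of all genes). Without young library 2 the count ranking higher was 48 members, and 58.7% of all genes.

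When each library was instead ranked among the same 10569 genes, so that unequal list length did not enter directly, the median difference was 0.562 points for members and -0.0237 for all genes. On this scale 4 members (5.41%) ranked higher in every middle-aged library, against 5.86% of all genes, and 1 (1.35%) ranked lower, against 6.05%. By complex the medians were 0.809 for I, -2.90 for II, 0.491 for III, 0.562 for IV and -0.243 for V, so that complexes II and V changed sign between the scales. The limma fit to normal scores of these ranks called 0 members and 0% of the 10569 genes at an adjusted p under 0.05, and the lowest adjusted p of a member was 0.717. At an unadjusted p under 0.05 the same limma fit had 3 members, Atp5a1, Uqcr10 and Uqcrb, all lower in the middle-aged libraries, and 6.2% of all genes. Within the whole list the difference was 1.75 points for Uqcr10 and -1.37 for Uqcrb, so the direction of Uqcr10 and Atp5a1 depended on the scale.

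**Figure D5:**
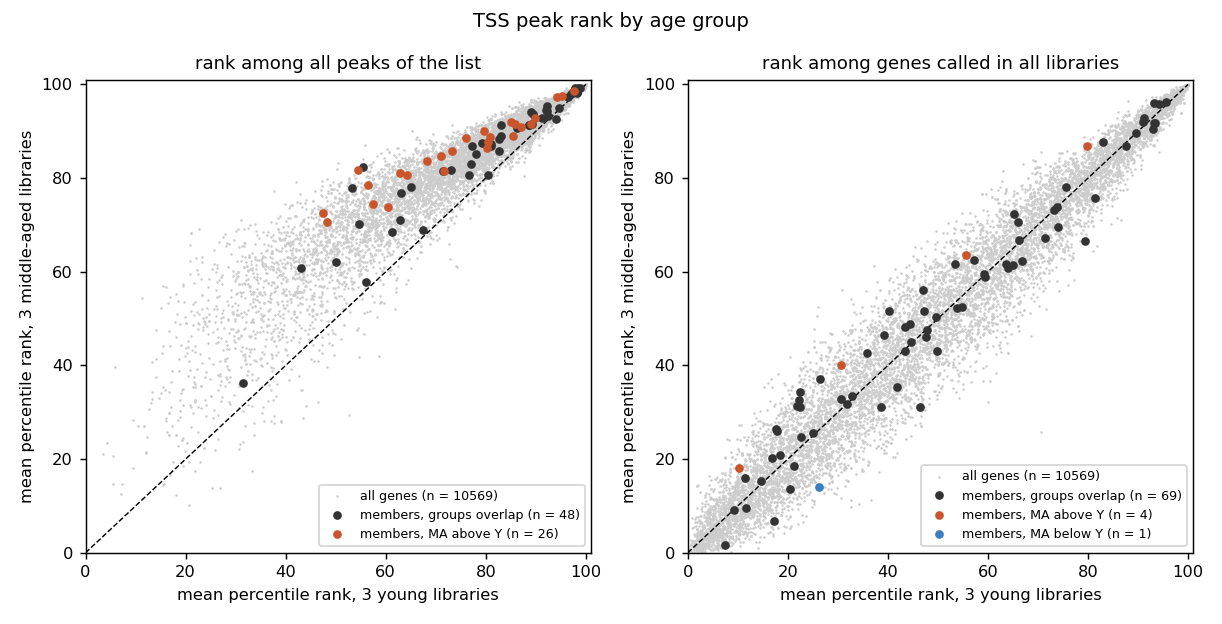
Mean rank of each gene in the 3 young (x axis) and 3 middle-aged (y axis) libraries, ranked within the whole list (left) and among the genes called in all libraries (right), with all 10569 genes in grey, members in black, and members whose groups do not overlap in orange (26 left, 4 right) or blue (1 right). Members lie within the cloud of all genes on both scales; the cloud is above the dashed line of equality at left and around it at right.

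The largest non-overlapping differences on the whole-list scale were those of Cox6b1, Ndufs7, Ndufb3, Ndufb8 and Atp5j2. In middle-aged library 3 their peaks lay, on mm10, at chr7:30625994-30626402, chr10:80248918-80249579, chr1:58586202-58586460, chr19:44555208-44555633 and chr5:145191138-145191753, each overlapping the window around an annotated start. Cox6b1, which sits on the intermembrane-space side of complex IV, ranked 74.6, 78.3 and 10.6 in young libraries 1 to 3 and 81.1, 81.2 and 83.0 in middle-aged libraries 1 to 3. Its difference of 27.3 points was 5.34 without young library 3, and on the common scale its groups overlapped. Ndufs7, a core subunit of complex I that holds an iron-sulfur cluster, ranked 50.7, 55.8 and 36.0 in young libraries 1 to 3 and 70.8, 68.0 and 78.7 in middle-aged libraries 1 to 3. The groups were apart on both scales, with means of 47.5 ± 10.3 and 72.5 ± 5.55 (SD, n = 3) within the list and a difference of 7.9 points on the common one, with limma giving an adjusted p of 0.805. Ndufb3, a complex I accessory subunit, ranked 51.8, 44.4 and 48.8 in young libraries 1 to 3 and 71.4, 65.1 and 75.6 in middle-aged libraries 1 to 3. Its difference was 22.4 points, and 4.47 points on the common scale with overlapping groups. The Ndufb3 summit was nearer to the start of Fam126b in every library.

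Ndufb8, a further accessory subunit of complex I, ranked 69.2, 68.1 and 31.9 in young libraries 1 to 3 and 78.1, 75.2 and 82.2 in middle-aged libraries 1 to 3. Its difference of 22.1 points was 9.84 without young library 3, and 8.76 points on the common scale with overlapping groups. Atp5j2, subunit f of the ATP synthase, ranked 51.3, 71.4 and 65.7 in young libraries 1 to 3 and 80.4, 80.0 and 83.1 in middle-aged libraries 1 to 3, a difference of 18.4 points, and 9.48 points on the common scale with overlapping groups. Sdhc, Ndufa7 and Atp5mpl had differences of 24.6, 17.8 and 26.9 points, but their groups overlapped and young library 3 was far below the rest of the young libraries in each.

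On the common scale the 4 members that ranked higher in every middle-aged library were Ndufs7, Ndufa2, Atp5d and Atp5e. Ndufa2, a complex I accessory subunit, had common ranks of 55.6 ± 1.08 in young and 63.5 ± 5.26 in middle-aged libraries (SD, n = 3). Atp5d and Atp5e, the delta and epsilon subunits of the central stalk, differed by 9.33 and 7.17 points. The 1 member that ranked lower was Atp5a1, with common ranks of 26.3 ± 2.74 against 14.1 ± 2.82 (SD, n = 3) and a limma score difference of -0.446 ± 0.151 (SE; adjusted p 0.717). Within the whole list Atp5a1 had ranked 71.9, 73.6 and 57.0 in young libraries 1 to 3 and 65.0, 71.1 and 70.5 in middle-aged libraries 1 to 3, with overlapping groups and a difference of 1.38 points, so its direction depended on the scale.

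The order of the members was similar in all libraries. Spearman's correlation of the 74 ranks between pairs of libraries was 0.907 to 0.952 without young library 3 and 0.872 to 0.921 with it, against 0.946 to 0.957 and 0.915 to 0.919 over all genes. These are correlations across genes of libraries that share start sites, and genes are not independent replicates.

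A list of 64 genes of the pathway that are not members, mostly assembly factors and regulators, was described in the same way. It also holds Cyc1 and Cycs. Cyc1 encodes cytochrome c1, a subunit of complex III whose symbol lies outside the member rule, and Cycs encodes cytochrome c. Of the 64 genes, 61 were called in every library and 1, Sdhaf1, an assembly factor of complex II, in none. Ndufaf1, an assembly factor of complex I, was called only in middle-aged library 2. Ppargc1a, the coactivator PGC-1 alpha, lacked a peak in young library 3 and ranked 27.8 and 49.97 in young libraries 1 and 2 and 25.8, 52.1 and 19.1 in the middle-aged libraries. On the whole-list scale 22 ranked higher in every middle-aged library (36.1%, all genes 30.6%) and 0 lower (all genes 0.274%), with a median difference of 4.59 points. Among the common genes 6 of the 61 ranked higher (all genes 5.86%) and 4 of the 61 lower (all genes 6.05%). The largest non-overlapping differences were those of the complex IV factors Surf1, Coa3 and Taco1, at 31.8, 25.1 and 19.2 points. On the common scale the differences were 2.27, 12.7 and 8.7 points, and only the groups of Coa3 among these 3 remained apart. Surf1, needed for building the catalytic core, ranked 32.9, 16.6 and 20.1 in young libraries 1 to 3 and 58.8, 46.6 and 59.5 in middle-aged libraries 1 to 3, and Surf2 starts 22 bp away on the opposite strand. Nrf1, Gabpa, Yy1 and Sp1, factors whose letters were searched for or that bind them, were called in every library. Their mean ranks were 82.8, 96.9, 98.0 and 95.5.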

How the data were processed

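The authors made the deposited peak lists, 1 per library and not pooled: reads were converted with bcl2fastq, aligned to mm10 with Bowtie2 and stripped of duplicates with Sambamba, and peaks were called with MACS. Whether reads were shifted for the transposase is not stated in the sources used here. The columns deposited by the authors hold a whole-number score, the fold enrichment (a ratio) of the summit over local background, −log10 p and −log10 q values, and the summit position. Reads were not analysed here, so the study's DiffBind comparison, which needs read counts, was not repeated.

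From these lists, peaks were joined to the starts of protein-coding transcripts in the GENCODE vM21 annotation of mm10 (54361 starts of 21853 genes; mitochondrial genome left out) within 1000 bp with an overlap of at least 1 bp. In each library a gene took its highest-ranking peak, which need not be the same region in every library. Ranks of −log10 q within a list depend on depth and list length, so a second scale ranked only the 10569 genes called in all 6 libraries. Per gene, an exact permutation test over 20 assignments was used. limma 3.58.1 in R 4.3.3 was fitted to normal scores of the common ranks over all genes, with Benjamini-Hochberg adjustment, and was tested on simulated data. Other steps used Python 3.11 with pandas 2.3.3, NumPy 2.4.6 and SciPy 1.17.1. The caller's background per base was solved from the fold and p columns. Depth in reads is not given by the lists.

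The genes named were those not called in every library, the 2 highest and 2 lowest of each complex, in each direction the 5 largest differences whose groups did not overlap, the isoform pairs, members called by limma, and similar members of the assembly list. Ndufa2, Atp5d, Atp5e, Atp5mpl and others outside these were named after their values were seen. The genes, lists, markers and motifs were chosen with earlier results of these data known. Promoters were taken from RefSeq. Some genes are not reported here by name.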

Additional observations from a re-analysis of the deposited data

How the results depend on the processing

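The count of 74 members called in every library was 72 to 76 under the other settings. The difference in mean number of members called was 0.667 with equally long lists (the best 27628 peaks of each), and 1.33 to 2.83 with 1 library left out. The median rank difference was 1.70 with equally long lists and 0.562 on the common scale, where the all-gene medians were 0.855 and -0.0237. It was 3.76 to 7.09 when 1 library was left out. The count of members ranking higher in every middle-aged library was 8 with equally long lists (9.51% of all genes) and 4 on the common scale, and 29 to 48 with 1 library left out (32.7% to 58.7% of all genes), where the original 26 remain by construction. The reverse count was 1 with equally long lists (3.71% of all genes), 1 on the common scale and 0 to 1 with 1 library left out, the 1 arising without young replicate 3 or without middle-aged replicate 2. A window of 500 bp, starts of all transcripts, a minimum −log10 q of 5 and ranking by fold enrichment kept these values on the same side; of the members ranking higher, 21 remained when ranking by fold enrichment, which gave 27 (23.3% of all genes). With a missing peak entered as rank 0, the median was 6.07 (all genes 5.60) and the count 27 of 79 (27.6% of all genes). Of 370 rank differences of named members under these settings, 39 moved by more than 1 SD: 16 with equally long lists, 21 on the common scale and 2 by fold enrichment; the sign changed for 11, 13 and 3 members under these settings, and for 1 to 4 with 1 library left out. limma called 0 members under every setting; without young replicate 3 it called 2 of all genes, and on within-list percentiles 1.

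The labels do not say whether equal replicate numbers pair the libraries. Deviations of same-numbered libraries correlated at 0.00508, -0.0359 and -0.0687, so no shared deviation was seen. These correlations cannot show whether such libraries were handled together. With the replicate block the median difference stays at 5.70 by construction, as the groups are balanced. limma with this block called 0 members and 0 genes. Peak lists hold no counts, so an uncalled start site is one that did not pass the caller's threshold at that depth, and is not shown to be closed.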
